A study of Arabidopsis thaliana with 8 samples.

Results

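The transcripts described here come from the mitochondrial genome of Arabidopsis thaliana, as read by Affymetrix ATH1 arrays, on which a set of short oligonucleotides (a probe set) reads each transcript. A probe set was taken when the platform annotation mapped it to a single gene with a lower-case mitochondrial symbol: nad, cob, cox, ccb, ccm, orf or mat, or atp followed by a digit. Plastid genes were left out. This gave 23 probe sets of 16 genes, among 22746 probe sets that are not controls and 13350 genes named by a single-gene probe set, and the rule reads the annotation only. Complex I of the respiratory chain had 15 probe sets of 8 genes, because the annotation mapped 7 of them to nad1 and 2 to nad5. Complex IV had 2 (cox1 and cox2), the cytochrome c maturation genes had 4 (ccb203, ccb206, ccb382 and ccb452), and matR and orfX had 1 each. Another 6 probe sets with a symbol of these families (for cox3, cob, atp1, atp9 and nad1) were mapped to several genes and were not included.

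Rosette leaves of 3-week-old plants were harvested after continuous light, 8 h of darkness and 2 h of renewed light, a shift labelled for every line. Free-text descriptions give shorter light times for some arrays, as set out with the processing. WT was the Columbia accession (Col). The flu line carried a T-DNA insertion (SAIL_136_E05) in FLU, which restrains the synthesis of a chlorophyll precursor, and flu mutants release singlet oxygen when brought back to light. The tAPX line was a single overexpressor line (14/2) in Col of the thylakoid-bound ascorbate peroxidase, which removes hydrogen peroxide, and flu tAPX plants carried the mutation and the overexpressor. Each line had 2 arrays, and each array held RNA pooled from 3 of 6 experiments, so a replicate is a pool and its spread understates that between single harvests. No array came from plants left in the dark or not shifted, so the values do not separate the response to the shift from a lasting difference between lines.

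Plant mitochondria keep a small genome that encodes core subunits of the respiratory chain, parts of the cytochrome c maturation machinery and parts of their own ribosome, while most mitochondrial proteins are encoded in the nucleus. Transcripts of nad1, nad2 and nad5 are assembled by trans-splicing, and many others are spliced and edited. Plant mitochondrial mRNAs mostly lack a stable poly(A) tail, and polyadenylation there marks RNA for decay, whereas standard Affymetrix labelling, which the labels name, starts from poly(A) tails. Chromosome 2 of Col also holds a copy of much of the mitochondrial genome, so a probe set named for a mitochondrial gene may also read that copy. How far either point bears on these signals was not tested.

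Most mitochondria-encoded probe sets were dim. Signals are the deposited MAS5 intensities, on a linear scale. The median signal of the 23 lay between 61.1 and 92.4 on the 8 arrays, where the median of all probe sets lay between 151.9 and 164.5. The members' median stood between the 34.9th and the 41.0th percentile of its array. From 11 to 15 of the 23 fell under the 40th percentile of an array (a signal of 77.6 to 95.1), and 3 to 7 stood above its median. Averaged over the arrays, 16 probe sets had a signal under 100, and 7 were above it.

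The 7 above 100 belonged to ccb382, nad4, ccb452, cox1, cox2, orfX and nad9, with means from 111 for nad9 to 731 for ccb382. Over the 8 arrays the highest signal of each of these 7 was 1.50 to 3.85 times its lowest. For the 16 dim probe sets that ratio ran from 1.82 to 22.7, with a median of 6.60. Replicates of a line differed more than 2-fold for 17 of the 23 in at least 1 line. The most extreme pairs were those of nad2, which reads a complex I subunit, with signals of 95.6 and 5.51 in WT and of 4.20 and 62.8 in flu. The SD between replicates on the log2 scale, pooled over the lines, had a median of 0.51 for the members and 0.317 for all probe sets. Replicate arrays correlated across the 23 probe sets at r = 0.714 in WT and 0.868 in tAPX, with flu (0.853) and flu tAPX (0.814) between. Across all probe sets the same values ran from 0.950 to 0.976. These correlations are across probe sets, which are not independent, and describe the arrays.

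**Figure D1:**
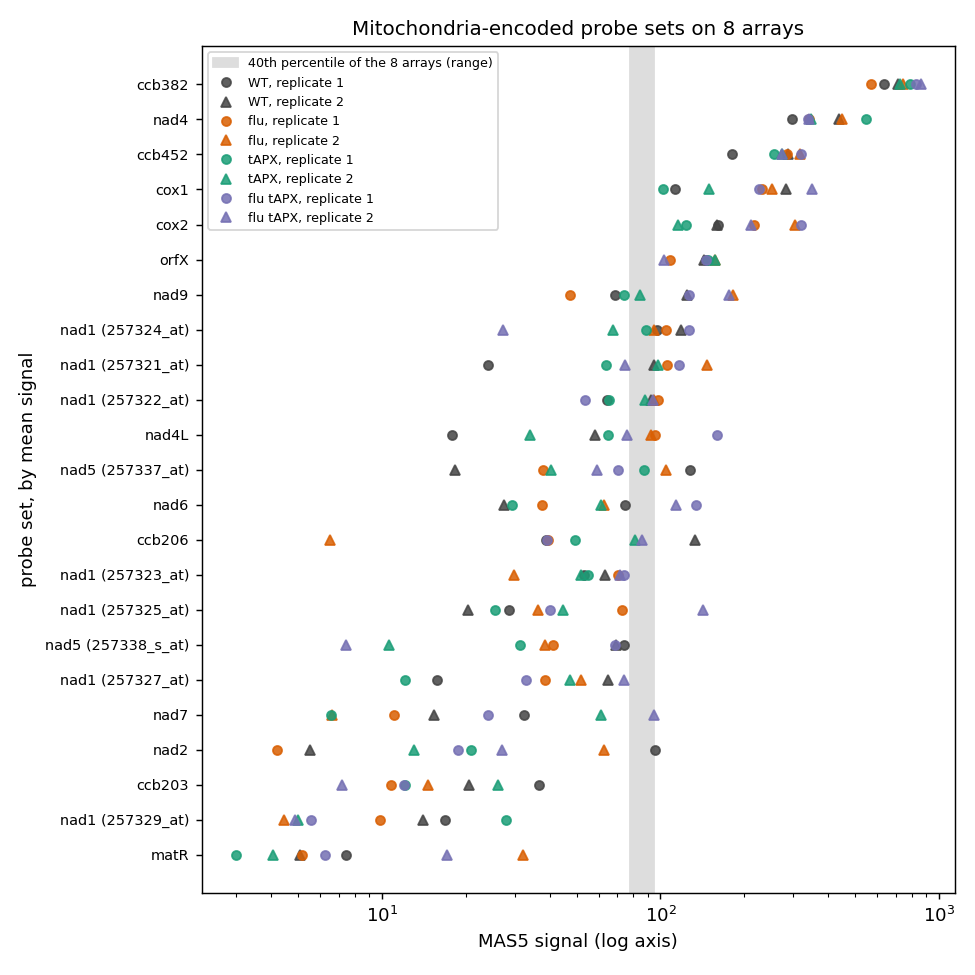
MAS5 signal (log axis) of each mitochondria-encoded probe set on the 8 arrays, ordered by mean signal; colours are the 4 lines, circles and triangles replicates 1 and 2, and the grey band is the range of the arrays' 40th percentiles (77.6 to 95.1). The 6 brightest probe sets lie to the right of the band on every array, and the 16 with a mean under 100 scatter across and below it.

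The TAPX signal matched the labels, at 22043 to 23222 on the 4 arrays with the overexpressor and at 1656 to 3115 on the other 4. Its probe set is named for the gene, so the signal is not split into transgene and endogenous transcript. FLU was not analysed here, as no probe set was named for it. A listed gene counts here as measured when a probe set was named for it alone, so others may be on the array without a name. Of 8 mesophyll markers 3 were measured, with line means from 1316 to 30480. The 3 pollen markers lay at 4.91 to 19.0, 3 root markers at 11.7 to 95.7 and the guard cell marker FMA at 254 to 316. No phloem marker was measured in this sense. The mesophyll markers LHCB4.2 (11573 to 15420 on the flu-mutant arrays, 22555 to 25302 on the others) and LHCB4.3 (1006 to 2316, 3466 to 4322) had lower signals with flu, RCA overlapped, and their part in the members' values was not tested. These are bulk leaf samples, in which fewer cells of a type and less RNA per cell cannot be told apart. The poly-A spike-in probe sets averaged 9.46 and 9.04 on the log2 scale on the flu tAPX arrays and 8.54 to 8.84 on the other 6, which touches every comparison with flu tAPX.

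The responses to flu were compared first, in the absence of the transgene (flu against WT) and in its presence (flu tAPX against tAPX), which share no arrays, and as their mean. Differences are on the scale of log2(signal + 16), which understates changes of dim probe sets. Each is given with its standard error (SE) from a fit of all 22746 probe sets with limma. A probe set is said to rise or fall when its p, adjusted over all of them by the Benjamini-Hochberg method, was under 0.05. Of the 23, none passed in flu against WT, where 13.7% of all probe sets did. None had an unadjusted p under 0.05 there either, against 26.3% of all. In flu tAPX against tAPX 1 rose, where 19.8% of all probe sets passed in either direction. In the mean response 1 rose, 4.35% of the members, where 26.7% of all probe sets passed. That probe set was cox2 both times. An unadjusted p under 0.05 was found for 3 members in flu tAPX against tAPX (cox1, cox2 and nad6; 31% of all) and for 3 in the mean response (cox1, cox2 and nad4L; 36.3% of all).

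Of the complex IV genes, cox2 encodes the subunit that takes electrons from cytochrome c. Its signals were 161 and 160.0 in WT, 216 and 305 in flu, 123 and 116 in tAPX, and 319 and 211 in flu tAPX. All 4 flu-mutant arrays stood above the other 4, by line means of 1.62-fold in flu over WT and 2.22-fold in flu tAPX over tAPX. Its difference was 0.63 ± 0.31 (SE) in flu against WT (limma, adjusted p = 0.237) and 1.03 ± 0.31 in flu tAPX against tAPX (limma, adjusted p = 0.0425). The mean response was 0.83 ± 0.22 (limma, adjusted p = 0.0185), with a 95% interval from 0.34 to 1.32. The responses with and without the transgene differed by 0.40 ± 0.44 (limma, adjusted p = 0.861). The call in the mean response held in 2 of the 8 fits that left out 1 array, those without flu 1 and without flu tAPX 2. These are the lower arrays of the flu-mutant lines, so leaving either out had to widen the difference and adds no support. The call was lost without WT 1, WT 2, flu 2, tAPX 1, tAPX 2 or flu tAPX 1, at 0.69 to 0.85. With arrays scaled on the poly-A spike-ins, the mean response of cox2 was 0.56 (limma, adjusted p = 0.131), and the difference in flu tAPX against tAPX was 0.45 (limma, adjusted p = 0.421). The call in flu tAPX against tAPX held in 1 of those 8 fits, that without flu tAPX 2, where the difference also had to widen.

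The other complex IV gene, cox1, encodes the catalytic core. Its signals were 112 and 282 in WT, 232 and 251 in flu, 102 and 150 in tAPX, and 225 and 350.3 in flu tAPX. The 2 WT arrays enclosed both flu arrays, while both flu tAPX arrays stood above both tAPX arrays. The differences were 0.39 ± 0.41 and 1.08 ± 0.41, and the mean response was 0.74 ± 0.29 (limma, adjusted p = 0.612, 0.0997 and 0.0938). Without WT 2, the highest array outside the flu-mutant lines, the mean response was 1.04. Without WT 1, the lower WT array, the mean response was 0.44. In that fit the difference in flu against WT turned to -0.21, while that in flu tAPX against tAPX stayed at 1.08.

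**Figure D2:**
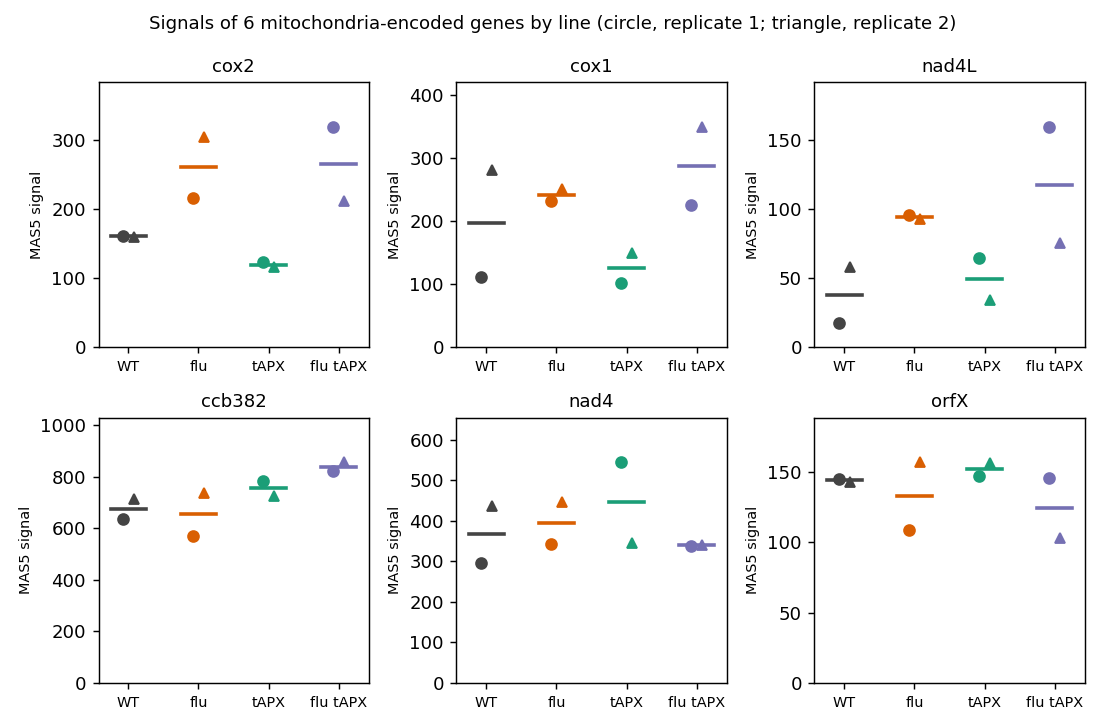
MAS5 signal (linear axes from 0) of 6 mitochondria-encoded genes by line; circles are replicate 1, triangles replicate 2 and bars line means (n = 2). For cox2 and nad4L both flu-mutant lines lie above WT and tAPX on every array, for cox1 a WT array reaches 282, and for ccb382, nad4 and orfX the flu-mutant arrays are not separated from the rest.

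Complex I, the NADH dehydrogenase, takes electrons from NADH at the entry of the chain. None of its 15 probe sets passed in any response to flu. In the mean response 10 of the 15 were above 0, the range was from -0.48 to 1.06 and the median 0.10. The lowest adjusted p was that of nad4L (0.0659). The brightest, nad4, is a membrane subunit with signals of 297 and 437 in WT, 342 and 447 in flu, 545 and 346 in tAPX, and 337 and 341 in flu tAPX. Both flu tAPX arrays lay just below both tAPX arrays and both flu arrays, and the other lines overlapped. The differences of nad4 were 0.11 ± 0.28 and -0.34 ± 0.28, and the mean response was -0.11 ± 0.19. With spike-in scaling the second was -0.94 (limma, adjusted p = 0.0315), beside a median of all probe sets that this scaling moved from -0.01 to -0.50 in that comparison.

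The small membrane subunit nad4L had signals of 17.9 and 58.2 in WT, 95.4 and 92.4 in flu, 64.6 and 34.2 in tAPX, and 159 and 75.6 in flu tAPX. With cox2 it was the only member whose 4 flu-mutant arrays all stood above the other 4. Its differences were 1.13 ± 0.54 and 1.00 ± 0.54. The mean response, 1.06 ± 0.38 (limma, adjusted p = 0.0659), was the highest among the 23 and missed the threshold. It was 1.35 without WT 2 and 1.30 without flu tAPX 2. These are the higher WT array and the lowest flu-mutant array, so leaving either out had to widen the difference and adds no support. All 4 of its signals in WT and tAPX lay under the arrays' 40th percentiles, as did that on flu tAPX 2 (75.6, against 95.1). It exceeded them on flu 1, flu 2 and flu tAPX 1 alone.

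nad1 encodes the membrane subunit next to the ubiquinone site, and its 7 probe sets gave values of both signs. Their mean signals ran from 11.1 to 90.6. In the mean response 5 were above 0 and 2 below, from -0.48 to 0.83, with a lowest adjusted p of 0.173. In flu against WT the split was 4 to 3, from -0.45 to 1.08, and in flu tAPX against tAPX 4 to 3, from -0.52 to 0.91. The 7 were mapped to the same gene and are not 7 measurements of independent transcripts. Which part of nad1 each reads, and whether each reads its transcript at all, was not determined here.

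The nad1 probe set with the highest mean response (257325_at, 0.83 ± 0.41) had signals of 28.5 and 20.5 in WT, 73.0 and 36.4 in flu, 25.5 and 44.9 in tAPX, and 40.2 and 142 in flu tAPX. Both flu arrays stood above both WT arrays, but the tAPX and flu tAPX arrays overlapped. Without flu tAPX 1 its mean response was 1.21, but this is the lower flu tAPX array, so leaving it out had to widen the difference. The one with the lowest (257329_at, -0.48 ± 0.30) had signals of 16.9 and 14.1 in WT, 9.84 and 4.45 in flu, 27.9 and 5.01 in tAPX, and 5.59 and 4.88 in flu tAPX. Here both flu arrays lay below both WT arrays, at signals near the dim end of the array.

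For the subunit nad5, the _s_at probe set had signals of 74.1 and 69.1 in WT, 41.3 and 38.4 in flu, 31.4 and 10.6 in tAPX, and 68.6 and 7.45 in flu tAPX. WT stood above flu and tAPX without overlap, and the flu tAPX arrays ran from below every other array to just under WT. Its response was -0.65 ± 0.61 in flu against WT and 0.33 ± 0.61 in flu tAPX against tAPX. The second nad5 probe set (257337_at) gave 0.20 ± 0.70 and 0.07 ± 0.70. For nad2, whose remaining signals were 20.9 and 13.0 in tAPX and 18.8 and 26.9 in flu tAPX, the mean response was -0.03 ± 0.57.

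The 3 other complex I genes were nad6, nad7 and nad9, described after their values were seen. For nad6 the signals in flu tAPX were 134 and 114, above the other 6 arrays, with tAPX at 29.4 and 61.1, while WT (74.6 and 27.4) and flu (37.7 and 62.8) overlapped. Its difference was 1.24 ± 0.52 in flu tAPX against tAPX (limma, adjusted p = 0.132) and 0.05 ± 0.52 in flu against WT, and the difference between the 2 was 1.19 ± 0.73 (limma, adjusted p = 0.772). nad7 and nad9 had mean responses of 0.01 ± 0.47 and 0.42 ± 0.39. For nad7 both flu arrays lay below both WT arrays and both flu tAPX arrays, and for nad9 both flu tAPX arrays lay above both tAPX arrays and both WT arrays.

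The ccb genes encode parts of the pathway that attaches heme to cytochrome c and cytochrome c1. None of the 4 passed in a response to flu, and in the mean response 2 were above 0 and 2 below, from -0.72 to 0.26 (lowest adjusted p = 0.236). ccb382, also called ccmFN1, was the brightest mitochondria-encoded probe set and the one with the smallest range over the arrays. Its signals were 636 and 712 in WT, 570.5 and 739 in flu, 785 and 726 in tAPX, and 823 and 858 in flu tAPX. WT lay within the range of flu, and both flu tAPX arrays stood above the other 6. Its mean response was 0.05 ± 0.12, with a 95% interval from -0.23 to 0.33, the narrowest of the 23. ccb452 (ccmFC) gave 0.26 ± 0.19.

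ccb206, the ABC transporter component ccmB, had signals of 39.0 and 133 in WT, 39.6 and 6.53 in flu, 49.3 and 80.9 in tAPX, and 39.2 and 85.8 in flu tAPX. Its response in flu against WT, -1.35 ± 0.64 (limma, adjusted p = 0.217), was the lowest among the 23 and rested on arrays that overlapped at 39.0 and 39.6. In flu tAPX against tAPX it was -0.09 ± 0.64. ccb203 (ccmFN2) had signals of 36.5 and 20.6 in WT, 10.8 and 14.7 in flu, 12.1 and 26.0 in tAPX, and 12.0 and 7.22 in flu tAPX. The flu-mutant arrays lay below their counterparts in both responses, without overlap, at -0.61 ± 0.41 and -0.43 ± 0.41, and the mean was -0.52 ± 0.29 (limma, adjusted p = 0.236).

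orfX, also called mttB, encodes a protein related to the TatC translocase. Its signals were 145 and 143 in WT, 109 and 157 in flu, 148 and 156 in tAPX, and 146 and 103 in flu tAPX. The WT arrays lay between the flu arrays, both tAPX arrays lay just above WT and flu tAPX, and the mean response was -0.20 ± 0.24. matR, a maturase encoded within an intron of nad1, was the dimmest, with signals from 3.00 to 32.0, and its mean response was 0.50 ± 0.31 (limma, adjusted p = 0.295).

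**Figure D3:**
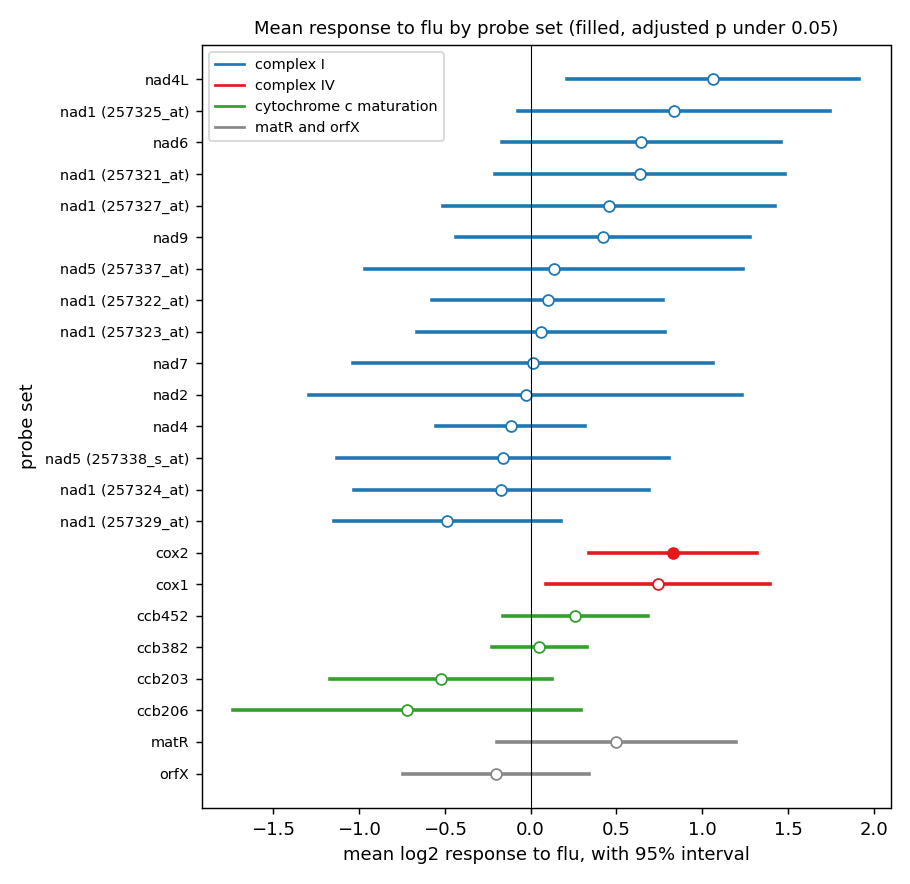
Mean log2 response to flu of each mitochondria-encoded probe set (points) with its 95% interval (lines), coloured by role; filled points have an adjusted p under 0.05. cox2 is the only filled point, and the intervals of nad4L and cox1 also lie above 0 before adjustment.

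The intervals set what these arrays could show. In flu against WT the 95% intervals reached 0.39 to 1.78 to either side (median 1.15), and 4 of the 23 lay wholly within 1 log2 unit of 0. In the mean response the reach was 0.28 to 1.26 (median 0.81), and 6 lay within that range. For the others the interval reached past 1 log2 unit in at least 1 direction, so changes of that size were neither shown nor excluded.

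The members' median lay above that of all probe sets in each response to flu, which is a description with no test. The median difference of the 23 was 0.05 in flu against WT, where that of all probe sets was -0.17. It was 0.24 against -0.01 in flu tAPX against tAPX and 0.10 against -0.09 in the mean response. In the same order 13, 16 and 15 of the 23 were above 0. A difference had the same sign in both responses for 16 of the 23 and the opposite sign for 7. Spike-in scaling took the members' median in the mean response to -0.12 and that of all probe sets to -0.31, so its sign depended on the scaling. Without WT 1 the medians in flu against WT nearly met, at -0.13 for the members and -0.14 for all probe sets. Leaving out WT 2 or either flu array kept the members' median above, by 0.12 to 0.48.

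Both flu arrays stood above both WT arrays for 5 of the 23 (21.7%, against 18.8% of all probe sets) and below them for 4 (17.4%, against 35.6%). In flu tAPX against tAPX the counts were 8 above (34.8%, against 28.3%) and 3 below (13.0%, against 30.4%). All 4 flu-mutant arrays were above the other 4 for 2 members (8.70%, against 11.9%) and below for none (17.6% of all).

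**Figure D4:**
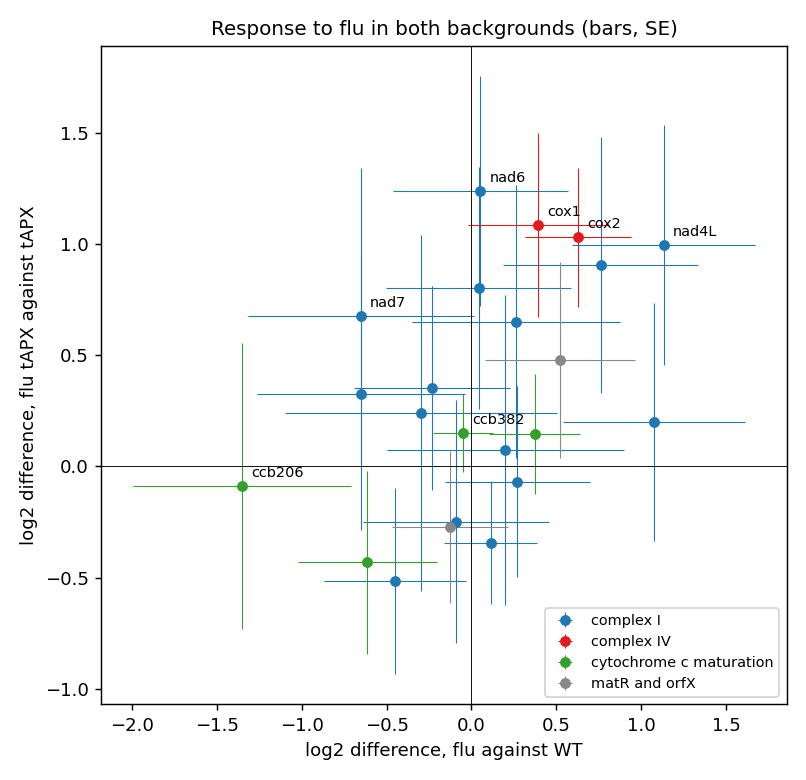
Log2 difference in flu against WT (horizontal axis) and in flu tAPX against tAPX (vertical axis) of the 23 mitochondria-encoded probe sets, with SE bars, coloured by role. cox1, cox2 and nad4L lie above 0 on both axes, nad6 lies high on the vertical axis (1.24) and near 0 on the horizontal (0.05), and ccb206 lies farthest to the left (-1.35).

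The transgene was compared in both backgrounds. No member passed in tAPX against WT or in flu tAPX against flu by limma's test, and none had an unadjusted p under 0.05 in either. In each of these comparisons 1 probe set of all passed (0.0044%), that of the overexpressed TAPX (2.99 ± 0.17 and 3.75 ± 0.17). Of all probe sets, 4.59% and 6.01% had an unadjusted p under 0.05. The median of the members was -0.084 in tAPX against WT, where that of all probe sets was -0.076, with 9 of 23 above 0, and 0.00 in flu tAPX against flu, where that of all was 0.04. Both tAPX arrays stood above both WT arrays for 2 members (8.70%, against 14.5% of all probe sets) and below them for 4 (17.4%, against 26.4%). Both flu tAPX arrays stood above both flu arrays for 4 (17.4%, against 19.7%) and below them for 2 (8.70%, against 11.9%). These comparisons share arrays with the responses to flu.

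In tAPX against WT the lowest values were those of nad5 (_s_at; -1.30 ± 0.61), nad2 (-0.58 ± 0.80) and cox1 (-0.48 ± 0.41), and the lowest adjusted p was 0.964. The highest were those of nad1 (257321_at; 0.51 ± 0.54), nad4L (0.34 ± 0.54) and nad1 (257325_at; 0.32 ± 0.58). The first of these nad1 probe sets had signals of 24.0 and 95.03 in WT, 105 and 147 in flu, 63.6 and 97.7 in tAPX, and 116 and 74.4 in flu tAPX. Both complex IV genes were below 0 in tAPX against WT, cox2 at -0.38 ± 0.31 with both tAPX arrays below both WT arrays. In flu tAPX against flu the highest were nad7 (1.43 ± 0.66), nad6 (1.10 ± 0.52) and ccb206 (1.08 ± 0.64), with adjusted p of 0.853 or above (limma). In the same comparison cox2 was at 0.02 ± 0.31 and ccb382 at 0.36 ± 0.18 (limma, adjusted p = 0.858).

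The interaction, the response to flu with the transgene minus that without it, passed for no member and for no probe set on the array (0% of all). At an unadjusted p under 0.05 it was found for none of the 23 and for 6.88% of all. The members' median was 0.18, beside 0.12 for all.

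Some members neighbour each other when the protein-coding genes of the mitochondrial chromosome are ordered by start position (RefSeq, assembly TAIR10.1). Strand, distance and other genes were not considered, and a single start does not place all parts of a trans-spliced gene such as nad2. In that order cox2 (mean response 0.83) lies next to ccb206 (-0.72), and nad2 (-0.03) next to nad6 (0.65). In the row ccb452, nad4 and orfX the values were 0.26, -0.11 and -0.20. These pairs were picked after their values were seen, and none was tested for a difference.

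Nuclear genes for mitochondrial functions and plastid-encoded genes were set beside the members, each list counted in the mean response against the 26.7% of all probe sets that passed. As for the markers, a gene counts as measured when a probe set was named for it alone. Of 33 nuclear genes for respiratory chain subunits and cytochrome c, 13 were measured, by 14 probe sets, of which 2 rose, 1 fell and 11 did not pass (median -0.17). Of 33 genes for mitochondrial RNA and DNA handling 8 were measured, and 1 fell (median -0.30). Of 21 genes for alternative respiration and mitochondrial stress 7 were measured, of which 3 rose and 2 fell (median 0.76). Of 69 plastid-encoded probe sets 1 rose and 5 fell (8.70%; median -0.10).

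Among the respiratory chain genes, CYTC-2, a cytochrome c, had mean signals of 969 ± 238 (SD, n = 2) in WT, 2419 ± 47.0 in flu, 1646 ± 161 in tAPX and 2396 ± 1641 in flu tAPX. Its mean response was 0.84 ± 0.27 (limma, adjusted p = 0.0444), from 1.33 ± 0.38 in flu against WT (adjusted p = 0.0464) and 0.35 ± 0.38 in flu tAPX against tAPX (adjusted p = 0.602). Both calls were lost without any single WT, flu or tAPX array, the mean response being at 0.71 to 0.96 in those fits, and also with a pseudocount of 64 or without the variance trend. The mean response was 0.46 without flu tAPX 1 and 1.22 without flu tAPX 2, and passed in both, while spike-in scaling (0.55, adjusted p = 0.0881) ended it and quantile normalization ended the call in flu against WT (adjusted p = 0.05). SDH2-1, the iron-sulphur subunit of complex II, rose by its brighter probe set (0.41 ± 0.12, adjusted p = 0.0276), while its second one, at a mean signal of 16.3, gave -0.17 ± 0.27. The call of SDH2-1 was lost without WT 1, WT 2, flu 1, tAPX 1 or tAPX 2, at 0.30 to 0.43, with spike-in scaling (0.12) and without the trend. The cytochrome c1 gene AT5G40810 of complex III fell (-0.42 ± 0.11, adjusted p = 0.0149), a call lost without WT 1 (-0.40), tAPX 1 (-0.39) or the trend.

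Of the genes that handle mitochondrial nucleic acids, OSB1, a DNA-binding protein of mitochondria, fell by 0.69 ± 0.21 (limma, adjusted p = 0.0311). Its mean signals were 195 ± 17.6 in WT, 149.6 ± 6.13 in flu, 238 ± 23.5 in tAPX and 108 ± 7.70 in flu tAPX, and the call was lost without any single WT, flu or tAPX array (-0.74 to -0.64). AT5G15700, the RNA polymerase RPOTmp of mitochondria and plastids, had a mean response of -0.91 ± 0.40 (adjusted p = 0.131), and AT5G14580, the mitochondrial polynucleotide phosphorylase that degrades RNA, of -0.43 ± 0.37 (adjusted p = 0.455). Neither passed as reported, but that of AT5G15700 did with spike-in scaling (-1.12, limma, adjusted p = 0.0457). Leaving out flu tAPX 1 moved the mean response of AT5G15700 to -1.26. The phage-type polymerase AT1G68990 and the alternative oxidase AOX1A were not analysed here, since no probe set was named for either.

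Of the 7 measured nuclear genes of alternative respiration and stress, 3 rose beyond the range of the members. AT5G51440, a small heat shock protein of mitochondria, rose from 156 ± 25.8 in WT to 6859.9 ± 726 in flu and from 85.8 ± 0.24 in tAPX to 7718 ± 834 in flu tAPX. AT2G21640, a marker of oxidative stress, rose from 87.1 ± 15.7 to 2673 ± 1038 and from 99.0 ± 14.8 to 2178 ± 1812. NDB2, an external NADH dehydrogenase that bypasses complex I, rose from 1167 ± 33.7 to 6458 ± 54.4 and from 992 ± 116 to 6813 ± 473. Their mean responses were 5.78 ± 0.12, 4.31 ± 0.36 and 2.61 ± 0.10 (limma, adjusted p = 4.02e-09, 1.05e-05 and 5.1e-08), and all 3 passed whichever single array was left out. The related dehydrogenases NDB1 and NDC1 were named after their values were seen. They fell by 0.51 ± 0.15 and 0.43 ± 0.13 (adjusted p = 0.0314 and 0.0396). Each of these calls was lost in 6 of the 8 fits that left out 1 array, at -0.55 to -0.40 and at -0.49 to -0.32. Against these, the mean responses of the 23 mitochondria-encoded probe sets lay between -0.72 and 1.06.

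**Figure D5:**
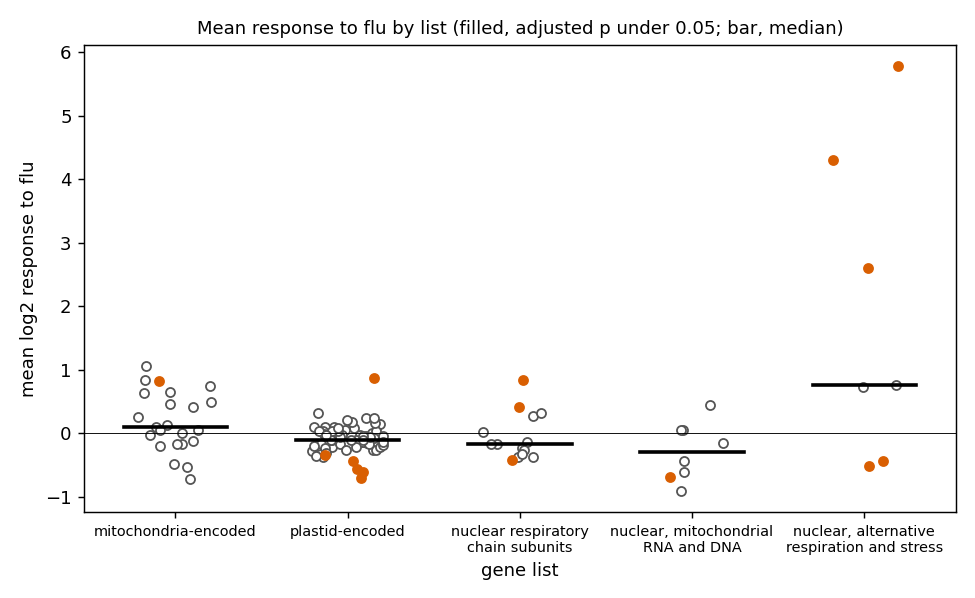
Mean log2 response to flu of every probe set of 5 lists: mitochondria-encoded, plastid-encoded and 3 nuclear lists; filled points have an adjusted p under 0.05, bars are list medians, and horizontal scatter within a list only separates points. The mitochondria-encoded points lie between -0.72 and 1.06 with a median of 0.10, while 3 genes of alternative respiration and stress lie between 2.61 and 5.78.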

How the data were processed

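The deposited table holds linear intensity values that were made with MAS5 per the submitters' processing notes (version not given). The authors' signals have a trimmed mean near 500.05 on every array (lowest and highest probe sets left out), so a large rise of abundant transcripts lowers all others. Free-text sample descriptions conflict with the other labels on accession, line and time. For accession and line the titles, source names and genotypes, which concur, were followed. The descriptions give 120 min of light for both WT arrays and 60 and 120 min for replicates 1 and 2 of flu. For tAPX they give 30 and 60 min, and for flu tAPX 60 and 120 min. Every line was taken as 2 h, and a part of light time in the differences between lines was not tested. Probe sets were named from the platform annotation: 13513 of 22810 had 1 gene, 503 several and 8794 none. The 64 controls were left out.

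Values were taken as log2(signal + 16) with no expression filter and no further normalization. A model of the 4 line means was fitted to all 8 arrays in limma 3.58.1 (R 4.3.3) with a variance trend (4 residual degrees of freedom, median prior of 5.95). Moderated two-sided tests of 6 contrasts were adjusted by Benjamini-Hochberg over 22746 probe sets, with a threshold of 0.05. The code was tested on simulated data. The number of arrays, 2 per line, limits the precision. The labels do not say whether replicate numbers mark shared experiments, so a pairing of the lines was not settled. Deviations from the line means correlated between lines at -0.0211 to 0.191 over all probe sets and at -0.448 to 0.618 over the members. A replicate block was run only as an alternative.

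Members, gene lists and tests were chosen with earlier results of these data known. Genes named are nad4, nad4L, ccb382, orfX, the brightest member of each role, any member past the threshold, the 3 highest and lowest in the mean response and in tAPX against WT, and in each nuclear list up to 3 largest calls plus AOX1A, the RNA polymerases and the polynucleotide phosphorylase. Alternatives covered pseudocounts of 1 and 64, a filter at the 40th percentile on 2 arrays, spike-in, quantile and median scaling, no trend, a replicate block, only the lines compared, plain _at probe sets, the brightest probe set per gene (added after seeing the data) and each array left out.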

Additional observations from a re-analysis of the deposited data

How the results depend on the processing

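With 2 arrays per line and most signals near the dim end, calls of single members rest on little. In the mean response the members called were 1 as reported, 2 with the filter (nad4L joins cox2, but it passes the filter through flu-mutant arrays alone, so this adds no support), 2 with the replicate block and 0 with spike-in scaling. With 1 array left out the calls were often lost or fell on other members. Without WT 2 they fell on nad4L and cox1 in place of cox2, and without flu tAPX 1 on nad1 (257325_at) in its place. In flu tAPX against tAPX the members called were 1 as reported, 0 with quantile normalization (lowest adjusted p = 0.0535), with median scaling (0.0503), without the trend (0.0516) and with only the lines compared (0.089), 2 with the replicate block (cox1 joins cox2) and 1 with spike-in scaling (nad4, lower, in place of cox2). With 1 array left out the call was mostly lost, and without WT 1 it fell on cox1 in place of cox2. The other comparisons called 0 members under every setting run. The median difference of the members moved to 0.20 with the filter and to -0.12 with spike-in scaling in the mean response, and to -0.14 and -0.36 with spike-in scaling in flu tAPX against tAPX and against flu. In the interaction it moved to -0.13 with the filter, -0.22 with spike-in scaling and -0.019 with quantile normalization, which also gave 0.083 in tAPX against WT. With 1 array left out these medians ran from -0.13 to 0.33 (flu against WT), 0.19 to 0.33 (flu tAPX against tAPX), 0.078 to 0.30 (mean response), 0.019 to 0.38 (interaction), -0.23 to 0.057 (tAPX against WT) and -0.22 to 0.19 (flu tAPX against flu). Over all probe sets, 3127 calls in flu against WT became 1815 with spike-in scaling, 1882 without the trend, 1609 and 1660 without WT 1 or 2, and 1875 and 1868 without flu 1 or 2. The 4504 in flu tAPX against tAPX became 7052 with spike-in scaling and 2459 and 2339 without tAPX 1 or 2, and the 1 in tAPX against WT became 3 with spike-in scaling and 0 without the trend. Spike-in scaling took the share of higher calls from 50.8% to 73.7%, from 48.2% to 16.8% and from 41.3% to 24.1% in flu against WT, flu tAPX against tAPX and the mean response. The replicate block moved no count over all probe sets by over 1.5 times. Among the members and the genes of the nuclear lists, no direction of a called value was reversed under any alternative. Directions of the other probe sets were not checked. The filter and the fits with fewer arrays test fewer probe sets or samples, and the cause of the other changes was not tested. Of the values of single genes under these alternatives, 4996 kept their side of the threshold, 78 lost a call and 48 gained one. Most of these values had not passed as reported, so the 4996 say little about how well calls held. The 78 losses fell on the few values that had passed.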
